A study of Mus musculus with 6 samples.

Results

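The genes described are 32 genes of cholesterol and fatty acid synthesis and of their control, taken by symbol from a table of 44788 genes. They were measured by RNA sequencing of endometrium, the lining of the uterus, from mice with adenomyosis, in which tissue of that lining grows into the muscle of the uterine wall. All mice were ICR females, an outbred strain. All had received oral tamoxifen (2.7 µmol/kg) from day 2 to day 5 of life, and adenomyosis was diagnosed by histology. After 75 days, 8 mice were injected with the GnRH agonist Decapeptyl at 1.5 µg per 100 g body weight daily, from day 3 to day 9 of estrus. Another 8 mice received its solvent. They were mated after 4 weeks, and the tissue was scraped out with a curved needle at day 4 of pregnancy. The agonist group and the no-agonist group had 3 libraries each. Libraries are numbered here within each group in the order of their labels, so a shared number does not pair them. Which mouse or mice gave each library is not stated, so the tests measure the spread between libraries, which may be technical. Of the symbols, 31 were in the table as written, and Msmo1 was present under its older symbol Sc4mol. All 32 genes had enough reads to be tested.

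Cells make cholesterol from acetyl-CoA by way of mevalonate, farnesyl diphosphate and squalene. When sterols in the endoplasmic reticulum run low, the escort protein SCAP carries the transcription factor SREBP2 to the Golgi, where it is released to switch on nearly every enzyme of the route, while INSIG proteins hold the complex back when sterols are plentiful. Oxidised sterols instead activate the nuclear receptors LXRα and LXRβ, which induce cholesterol exporters such as ABCA1 and ABCG1. SREBP1, itself an LXR target, drives fatty acid synthesis and desaturation.

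SREBP2 acts with the factor NF-Y, which binds CCAAT boxes, at short sterol regulatory elements near the start site. Promoter windows of 250 bases before to 50 after the start were found for 25 of the 32 genes in the RefSeq table (GRCm38.p6). The sterol regulatory element TCACNCCAC, searched on both strands, was present in 1 of 16 genes of the SREBP2 pathway with a window, against 1.44% of all 27025 genes in the table. The CCAAT box was present in 15 of those 16 genes, against 41.1% of all genes. The E-box CACGTG was found in 4 of the 16, against 8.09%. For the LXR element only an exact direct repeat of AGGTCA with 4 bases between the copies was searched. It was in none of the 25 genes' windows and in 0.0148% of all. None of these motifs overlapped another in the windows shown. A match describes letters and does not show binding. A window without a match may still hold a variant of the sterol or LXR element, since variants were not searched. The 250 bases before the start are shown for Hmgcs1, the gene with a match to TCACNCCAC. They are also shown for Idi1 and Insig1 of the same pathway and for the LXR target Abca1, chosen after their values were seen. Capitals mark the sterol element, CCAAT boxes (ATTGG on the other strand) and the E-box. They lie at chr13:119690101-119690350 (plus strand), chr13:8885356-8885605 (plus strand), chr5:28071162-28071411 (plus strand) and chr4:53159896-53160145 (minus strand).
Hmgcs1: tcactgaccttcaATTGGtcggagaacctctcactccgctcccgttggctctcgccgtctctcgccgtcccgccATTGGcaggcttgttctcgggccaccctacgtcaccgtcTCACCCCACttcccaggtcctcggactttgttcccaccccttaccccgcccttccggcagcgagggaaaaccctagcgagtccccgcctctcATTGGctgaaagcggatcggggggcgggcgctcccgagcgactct
Idi1: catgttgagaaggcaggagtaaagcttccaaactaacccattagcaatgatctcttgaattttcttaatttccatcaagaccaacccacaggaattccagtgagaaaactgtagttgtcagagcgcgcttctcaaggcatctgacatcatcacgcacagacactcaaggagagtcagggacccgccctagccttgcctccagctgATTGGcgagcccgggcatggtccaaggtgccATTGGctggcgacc
Insig1: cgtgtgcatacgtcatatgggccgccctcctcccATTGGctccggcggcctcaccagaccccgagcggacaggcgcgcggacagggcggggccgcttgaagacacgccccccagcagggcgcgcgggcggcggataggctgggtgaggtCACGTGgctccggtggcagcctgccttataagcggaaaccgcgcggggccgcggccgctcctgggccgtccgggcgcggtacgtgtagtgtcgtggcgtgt
Abca1: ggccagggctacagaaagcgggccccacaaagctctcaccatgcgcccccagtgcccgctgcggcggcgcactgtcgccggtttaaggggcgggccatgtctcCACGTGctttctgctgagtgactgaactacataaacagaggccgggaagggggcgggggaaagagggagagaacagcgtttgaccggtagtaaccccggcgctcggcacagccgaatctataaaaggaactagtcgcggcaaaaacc
In Hmgcs1 the sterol element began 137 bases before the start, with CCAAT boxes beginning 237, 176 and 45 bases before the start. In Idi1 a pair of CCAAT boxes lay 45 and 14 bases before the start. In Insig1 a CCAAT box at 216 and an E-box at 101 bases before the start were present, and in Abca1 an E-box at 147 bases.

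Library totals ranged from 11720958 to 14104266 counts, and a count of 0 in a library allows up to 0.204 to 0.276 CPM (3 counts, counting error alone). CPM are counts scaled to a common library size, here with a correction for composition (TMM). The 18S ribosomal RNA gene took 1.94% of counts in agonist library 1 and 3.31% in no-agonist library 2, against 0.254 to 0.369% in the other libraries. By edgeR's quasi-likelihood test no gene had an adjusted p under 0.05, with 0% called in either direction of 16581 genes tested. At an unadjusted p under 0.05, 691 genes lay higher with the agonist (4.17%) and 844 lower (5.09%). DESeq2 called 141 genes higher (0.870%) and 253 lower (1.56%). Of the 32 genes, none passed edgeR's adjusted threshold and 1, Scd2, had an unadjusted p under 0.05. The same gene was the 1 that DESeq2 called, and the 1 whose agonist libraries all lay above the others, a pattern that 6.94% of all genes tested showed (7.61% showed the reverse).

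The cholesterol route as a whole differed more between libraries of 1 group than between the groups. The 20 genes of the SREBP2 pathway are 18 enzymes, Insig1 and Stard4. Fitted log2 fold changes (agonist over no agonist) lay below 0 for 17 and above 0 for 3, against 47.8% of all genes below 0 and 52.2% above, with a median of -0.44 against 0.02 for all genes. None passed the adjusted threshold or had an unadjusted p under 0.05. The pathway's level, the mean over its genes of log2 CPM after centring each gene on the 6 libraries, was -0.28, 0.34 and -0.49 in agonist libraries 1, 2 and 3, and -0.57, 0.89 and 0.11 in no-agonist libraries 1, 2 and 3. Library 2 was the highest in each group, and no-agonist library 1 was the lowest of all, so the groups overlapped throughout. The group means were -0.14 ± 0.43 with the agonist and 0.14 ± 0.73 without it (SD, n = 3 each), a difference of -0.29. Without no-agonist library 2 the difference was 0.088, with 9 of 20 genes below 0, and without no-agonist library 1 it was -0.65, with 18 of 20 below 0. With library totals alone as the scale it was -0.12, with 12 of 20 genes below 0 while the median of all genes moved to 0.18. Without the 18S and mitochondrial genes it was -0.28.

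The order of the libraries was shared across the route. Agonist library 2 was the highest of its group for 18 of the 20 genes, against 33.9% of all genes tested, and no-agonist library 2 was the highest of its group for 20 of 20, against 32.5%. Over all 6 libraries, no-agonist library 2 held the highest value for 15 of the 20 genes, against 15.5% of all genes. The lowest value lay in no-agonist library 1 for 8 genes (10.7% of all genes) and in agonist library 3 for 7 (18.3%). The genes were brought together as 1 pathway with earlier results of these libraries known, so these counts are a description.

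**Figure D1:**
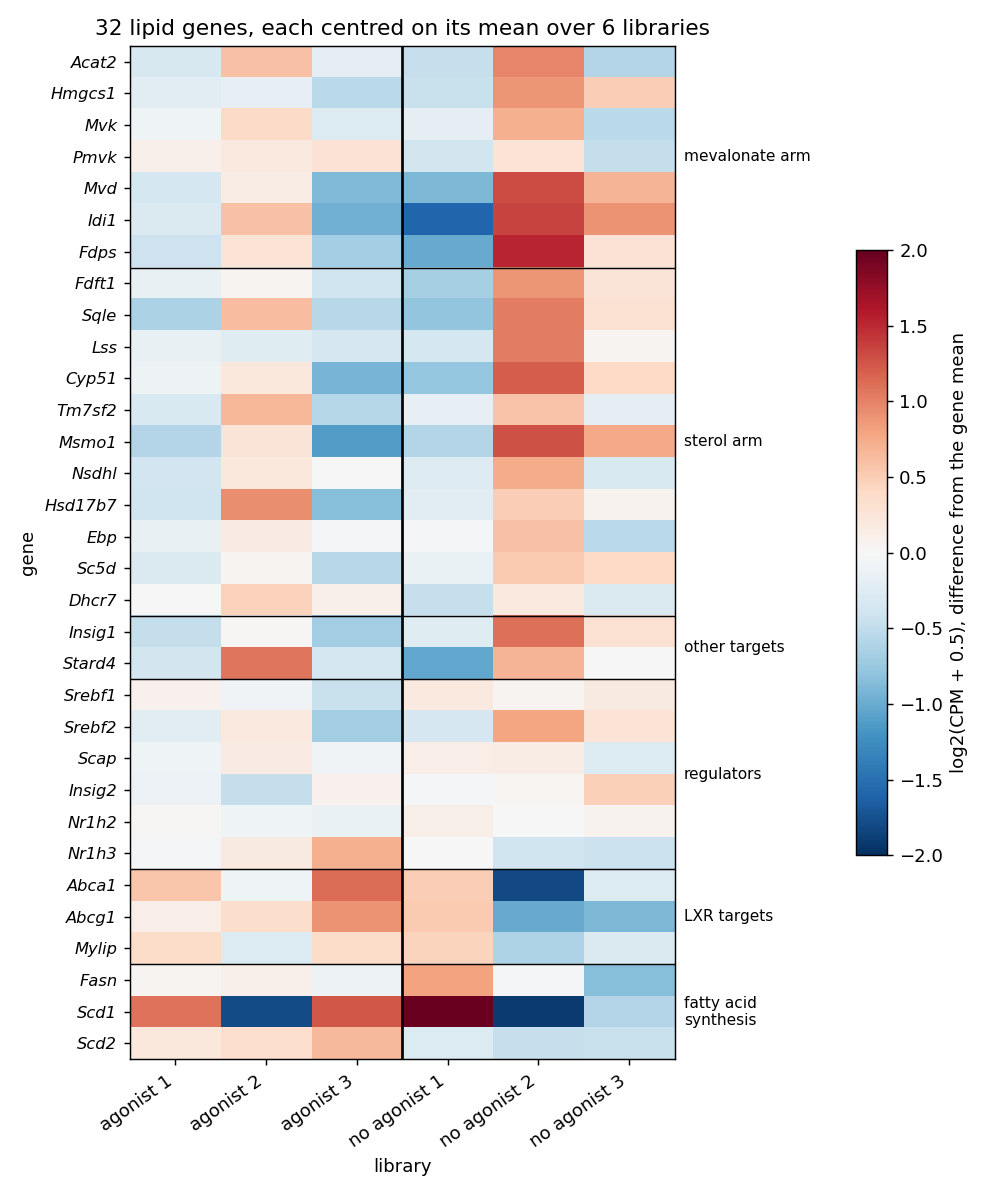
Each row is a gene and each column a library, with the 3 agonist libraries to the left of the line and the 3 no-agonist libraries to the right. Colour gives log2(CPM + 0.5) minus the gene's mean over the 6 libraries. No-agonist library 2 is the highest library for 15 of the 20 genes from Acat2 to Stard4 and the lowest for all 3 LXR targets.

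In the mevalonate arm, Hmgcs1, which makes HMG-CoA, measured 38.1, 39.5 and 30.4 CPM in agonist libraries 1, 2 and 3, against 32.6, 82.6 and 62.6 CPM in no-agonist libraries 1, 2 and 3. The agonist libraries lay close together, and no-agonist library 1 lay among them while the other two of its group were higher. The means were 36.0 ± 4.92 with the agonist and 59.3 ± 25.2 CPM without it (SD, n = 3 each; log2 fold change -0.72 ± 0.33 SE, edgeR adjusted p = 0.564). Mvd, the decarboxylase that yields isopentenyl diphosphate, measured 32.7, 46.1 and 22.2 CPM with the agonist, against 22.2, 103 and 66.6 CPM without it (log2 fold change -0.93 ± 0.52, edgeR adjusted p = 0.654). Fdps, which makes farnesyl diphosphate, measured 19.6, 31.9 and 16.2 CPM with the agonist, against 12.8, 76.6 and 32.2 CPM without it (log2 fold change -0.85 ± 0.59, edgeR adjusted p = 0.730). In both genes, as in Hmgcs1, no-agonist library 2 was the highest of all, and agonist library 2 was the highest of its group. Without no-agonist library 2 the log2 fold change was -0.40 for Hmgcs1, -0.39 for Mvd and 0.0093 for Fdps, and without no-agonist library 1 it was -1.27 for Fdps. Idi1, the isomerase before Fdps, was near the detection limit, at 1.28, 2.78 and 0.616 CPM with the agonist against 0.226, 5.05 and 3.58 CPM without it. No-agonist library 1 held 3 Idi1 reads. The thiolase Acat2 and the kinase Mvk had fold changes smaller than their errors (-0.09 ± 0.46 and -0.06 ± 0.38 on the log2 scale). The kinase Pmvk was the 1 gene of this arm with a positive fold change (0.36 ± 0.28).

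In the sterol arm, Msmo1, a C4-methyl sterol oxidase, had the largest negative fold change of the 32 genes. It measured 21.7, 39.3 and 14.9 CPM in agonist libraries 1, 2 and 3, against 21.9, 80.7 and 55.9 CPM in no-agonist libraries 1, 2 and 3 (means 25.3 ± 12.6 and 52.9 ± 29.6 CPM; log2 fold change -1.06 ± 0.51, edgeR adjusted p = 0.582). No-agonist library 1 again lay within the agonist range. The C5 desaturase Sc5d measured 11.3, 14.5 and 9.31 CPM with the agonist, against 12.8, 20.4 and 18.6 CPM without it (log2 fold change -0.55 ± 0.30, edgeR adjusted p = 0.635). The agonist group's highest library lay above the lowest of the other group. Lanosterol synthase, Lss, measured 16.7, 15.6 and 14.5 CPM with the agonist, against 14.3, 38.1 and 19.2 CPM without it (log2 fold change -0.61 ± 0.37, edgeR adjusted p = 0.675), and the log2 fold change without no-agonist library 2 was -0.097 for Lss and -0.61 for Msmo1. Of the other 8 enzymes, the log2 fold change was -0.69 ± 0.50 for the demethylase Cyp51, -0.45 ± 0.37 for squalene synthase Fdft1 and -0.43 ± 0.52 for squalene epoxidase Sqle. It was smaller than its error for Tm7sf2, Nsdhl, Hsd17b7 and Ebp, between -0.19 and -0.04. Without no-agonist library 2 it was -0.12 for Cyp51, -0.017 for Fdft1 and 0.086 for Sqle, and without no-agonist library 1 it was -1.06, -0.76 and -0.79 for the same genes in that order. Dhcr7, which reduces 7-dehydrocholesterol in the last step, had a value of 0.36 ± 0.25. Fdft1, Cyp51, Tm7sf2 and Lss share exonic bases with neighbouring genes in the GENCODE M21 annotation (Ctsb, Akap9, Vps51 and 4930483K19Rik), and no source used here gives the strand setting of the counting, so some of their reads may belong to those neighbours.

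Insig1, itself an SREBP target, encodes a brake on SREBP processing that acts when sterols are plentiful. It measured 14.3, 20.4 and 12.3 CPM in agonist libraries 1, 2 and 3, against 16.9, 43.8 and 24.9 CPM in no-agonist libraries 1, 2 and 3. Agonist library 2 was the 1 agonist library above any of the other group. The means were 15.7 ± 4.24 with the agonist and 28.5 ± 13.8 CPM without it (log2 fold change -0.86 ± 0.38, edgeR adjusted p = 0.551), and the log2 fold change was -0.41 without no-agonist library 2. The sterol carrier Stard4 measured 21.3, 58.2 and 21.5 CPM with the agonist, against 13.1, 44.6 and 27.7 CPM without it (log2 fold change 0.24 ± 0.54, edgeR adjusted p = 0.935). Its highest libraries were the same as for the enzymes, agonist library 2 and no-agonist library 2, and the difference between the groups was smaller than its error.

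Among the regulators, Srebf2, which encodes SREBP2 and is one of its own targets, measured 107, 143 and 77.6 CPM in agonist libraries 1, 2 and 3, against 99.1, 218 and 152 CPM in no-agonist libraries 1, 2 and 3 (log2 fold change -0.51 ± 0.34, edgeR adjusted p = 0.709). Library 2 was the highest of each group, and leaving out agonist library 3 gave a log2 fold change of -0.32, and leaving out no-agonist library 2 gave -0.19. Nr1h3, which encodes LXRα, measured 14.0, 16.2 and 23.7 CPM with the agonist, against 14.3, 10.7 and 10.5 CPM without it. The 2 groups overlapped through no-agonist library 1 alone (log2 fold change 0.61 ± 0.30, edgeR adjusted p = 0.586), and the log2 fold change was 0.36 without agonist library 3. Insig2, the brake less tied to sterols, measured 32.1, 24.9 and 36.9 CPM with the agonist, against 34.0, 35.8 and 48.5 CPM without it (log2 fold change -0.33 ± 0.23, edgeR adjusted p = 0.731). Leaving out agonist library 2 gave -0.19, and leaving out no-agonist library 3 gave -0.15. The genes for the escort protein, Scap, and for LXRβ, Nr1h2, varied least of the 32 over the 6 libraries, by 1.35-fold and 1.19-fold from lowest to highest. Srebf1, for SREBP1, varied by 1.56-fold (log2 fold change -0.27 ± 0.20). By contrast the ratio of highest to lowest library was 5.41 for Msmo1 and 5.97 for Fdps.

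The 3 LXR targets had positive fold changes, none past the threshold, and were lowest in no-agonist library 2, where most enzymes were highest. The exporter Abca1 measured 70.4, 45.0 and 104 CPM in agonist libraries 1, 2 and 3, against 67.9, 13.3 and 39.7 CPM in no-agonist libraries 1, 2 and 3 (means 73.2 ± 29.7 and 40.3 ± 27.3 CPM; log2 fold change 0.86 ± 0.55, edgeR adjusted p = 0.695). No-agonist library 2 was the lowest of all, and no-agonist library 1 lay within the agonist range. The exporter Abcg1 measured 14.4, 16.9 and 24.9 CPM with the agonist, against 19.2, 6.26 and 6.80 CPM without it (log2 fold change 0.80 ± 0.48, edgeR adjusted p = 0.673). Mylip, a ubiquitin ligase that degrades lipoprotein receptors, measured 65.9, 42.4 and 66.6 CPM with the agonist, against 69.9, 33.2 and 41.8 CPM without it (log2 fold change 0.27 ± 0.32, edgeR adjusted p = 0.859). For all 3, no-agonist library 1 was the highest of its group (29.9% of all genes), and no-agonist library 2 was the lowest of its group (33.7%) and of all 6 libraries (17.4%). Their mean level was 0.35, 0.0031 and 0.81 with the agonist, against 0.50, -1.17 and -0.50 without it (difference of group means 0.77). That difference was 0.39 without no-agonist library 2 and 1.22 without no-agonist library 1. Leaving out the same libraries in that order gave log2 fold changes of 0.45 and 1.47 for Abca1, 0.53 and 1.52 for Abcg1, and 0.065 and 0.63 for Mylip. Without agonist library 3 the log2 fold change was 0.52 for Abca1 and 0.16 for Mylip.

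The levels of the SREBP2 pathway and of the LXR targets are each relative to the genes' own means over the 6 libraries, so their difference compares libraries and not the abundance of the gene sets. The SREBP2 level minus the LXR level was -0.63, 0.34 and -1.30 in agonist libraries 1, 2 and 3, against -1.07, 2.05 and 0.61 in no-agonist libraries 1, 2 and 3. The groups overlapped, and no-agonist library 2 was the highest and agonist library 3 the lowest. The difference between group means was -1.06, and it was -0.30 without no-agonist library 2, -0.68 without agonist library 3 and -1.86 without no-agonist library 1. With Srebf1, Scd1 and Fasn, which LXR and SREBP1 share, added to the LXR targets, it was -0.69.

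**Figure D2:**
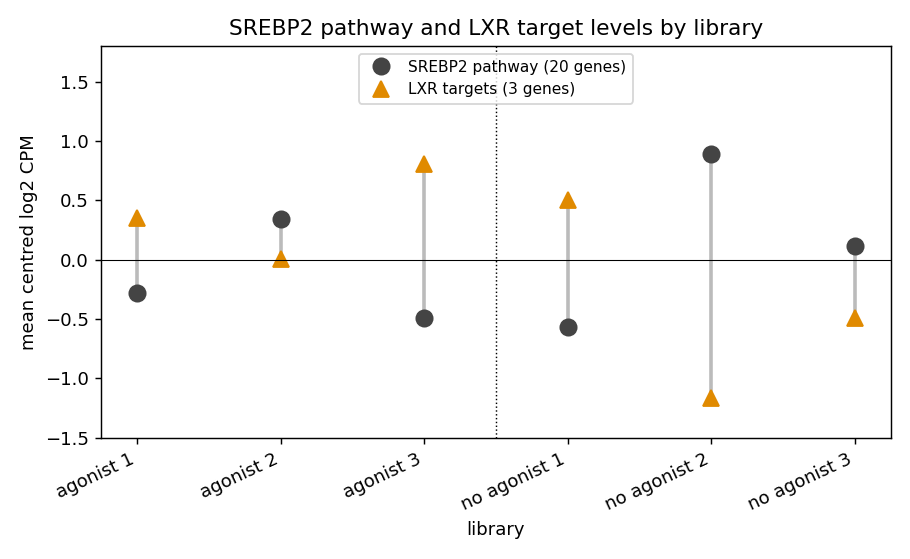
The mean centred log2 CPM of the 20 SREBP2 pathway genes (circles) and the 3 LXR targets (triangles) is plotted for each library, agonist libraries to the left. Each gene is centred on its mean over the 6 libraries. In no-agonist library 2 the pathway is at its highest, 0.89, and the LXR targets are at their lowest, -1.17.

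**Figure D3:**
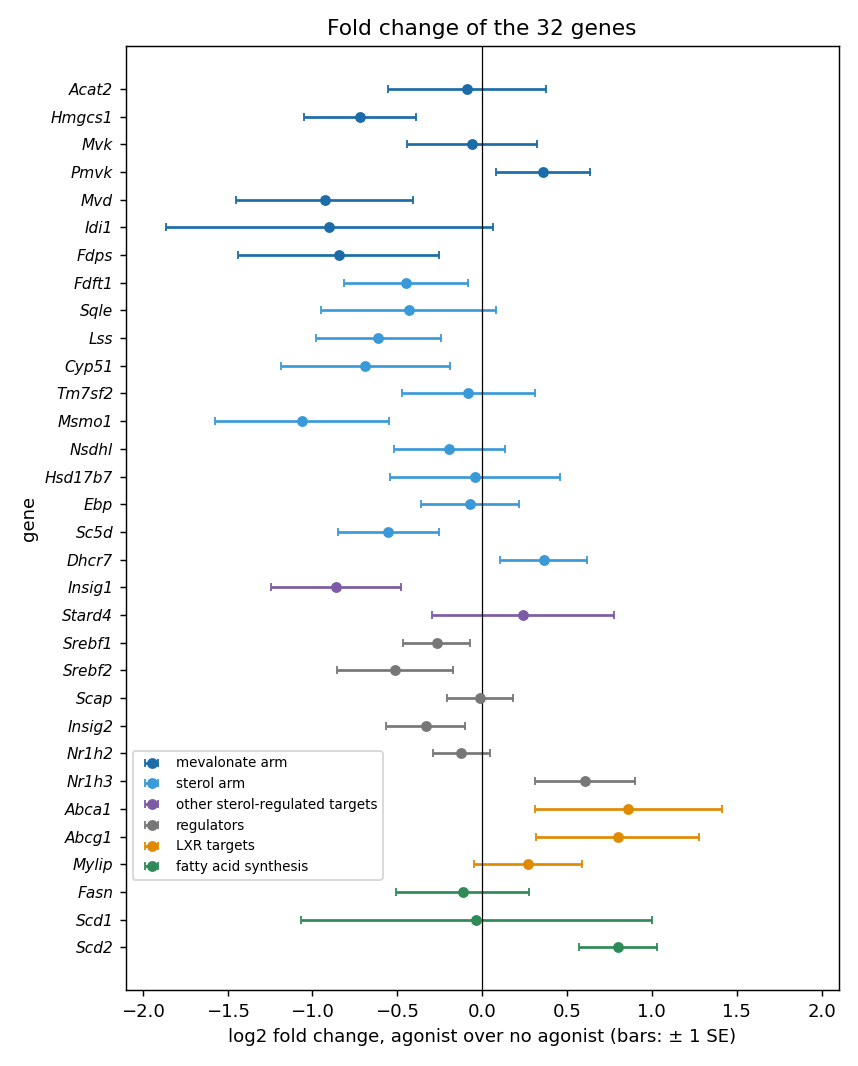
Points give the log2 fold change (agonist over no agonist) of each of the 32 genes from edgeR and bars 1 SE, coloured by role. The enzymes lie mostly below 0 with wide errors, the 3 LXR targets lie above 0, and Scd2 has 0.80 ± 0.23.

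Of the fatty acid genes, Scd2 was the 1 gene among the 32 whose groups did not overlap. This stearoyl-CoA desaturase, which makes monounsaturated fatty acids, measured 864, 946 and 1170 CPM in agonist libraries 1, 2 and 3, against 618, 543 and 550 CPM in no-agonist libraries 1, 2 and 3. All agonist libraries lay above all others, at means of 993 ± 159 and 571 ± 41.5 CPM (SD, n = 3 each), a 1.74-fold higher mean. It did not pass edgeR's threshold (log2 fold change 0.80 ± 0.23, edgeR adjusted p = 0.357) and passed that of DESeq2 (adjusted p = 0.0170). Over all alternatives its log2 fold change lay between 0.67 and 0.97, and its adjusted p between 0.0170 and 0.746. Fasn, fatty acid synthase, measured 416, 430.0 and 372 CPM with the agonist, against 702, 395 and 222 CPM without it (log2 fold change -0.12 ± 0.39, edgeR adjusted p = 0.965), so the agonist libraries all lay inside the range of the others. Scd1, the desaturase prominent in liver and fat, measured 150.1, 20.2 and 168 CPM with the agonist, against 281, 18.4 and 46.8 CPM without it (log2 fold change -0.03 ± 1.03, edgeR adjusted p = 0.998). Scd1 varied 15.3-fold between libraries and Scd2 2.15-fold. Reads of the close relatives Scd1 to Scd4 may be shared between them.

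The summed level of fat cell markers, like Scd1, was lowest in library 2 of each group, while Pck1 of this list was lowest in library 3 of each group. All 9 of the listed markers were tested, all with a positive fold change (52.2% of all genes tested) and none past the threshold. Their summed level was 1015, 38.5 and 714 CPM in agonist libraries 1, 2 and 3, against 685, 37.8 and 203 CPM in no-agonist libraries 1, 2 and 3. Adiponectin (Adipoq), Plin1, Cidec, Lep and Retn had 0 reads in library 2 of each group, and Adipoq measured 76.5 and 61.5 CPM in agonist libraries 1 and 3, against 65.5 and 21.0 CPM in no-agonist libraries 1 and 3. The libraries without reads of these fat cell markers were the ones with the highest SREBP2 pathway level and the lowest LXR target level of each group. The part of fat cells in these levels was not tested. In such bulk samples, fewer cells of a type and less RNA per cell cannot be told apart.

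**Figure D4:**
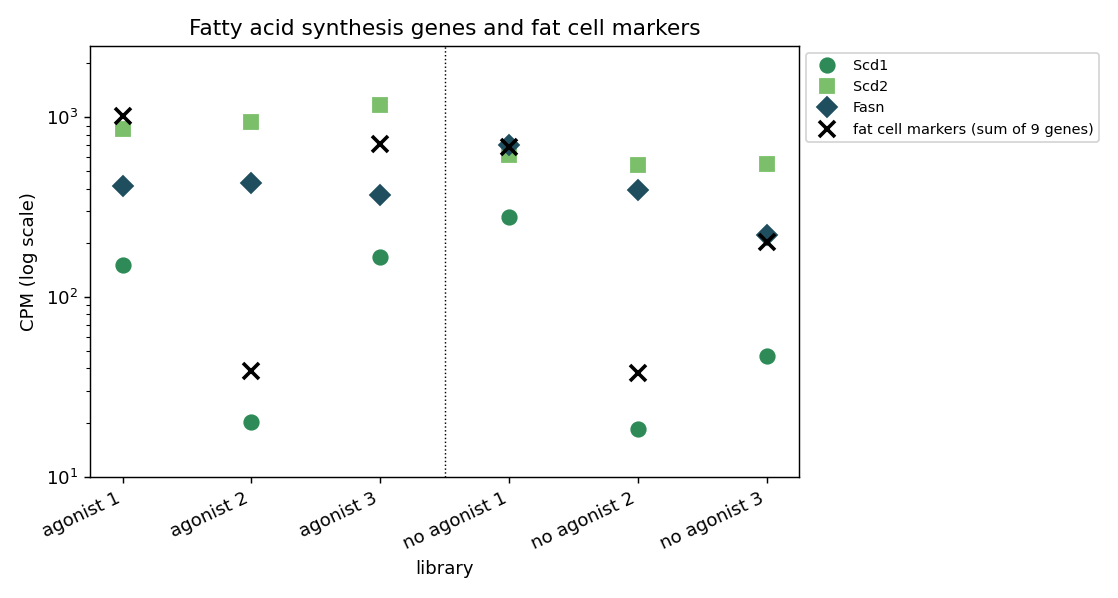
CPM on a log axis of Scd1, Scd2, Fasn and the sum of 9 fat cell markers in each library, agonist libraries to the left. Scd1 and the marker sum are both lowest in library 2 of each group, and Scd2 is higher in all 3 agonist libraries than in the others.

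Other cell markers varied with the libraries as well. For the counts of fold changes by direction below, 47.8% of all genes tested were negative and 52.2% positive. Stromal markers of the endometrium summed to 4865, 5443 and 4253 CPM in agonist libraries 1, 2 and 3, against 6949, 4363 and 5099 CPM in no-agonist libraries 1, 2 and 3. The sum of 12 epithelial markers was 7319, 6141 and 4843 CPM in agonist libraries 1, 2 and 3, against 8769, 13903 and 11460 CPM in no-agonist libraries 1, 2 and 3, with all 12 fold changes negative and the groups apart. No-agonist library 2, the top of the SREBP2 pathway, was also the top of these. The sum of 8 proliferation markers was 349, 807 and 171 CPM with the agonist, against 180, 324 and 87.0 CPM without it, highest in library 2 of each group. The sum of 10 macrophage markers was 976, 1008 and 499 CPM with the agonist, against 1604, 864 and 2557 CPM without it, lowest in no-agonist library 2 within its group. All 10 fold changes were negative. Cd14 alone made 2002 CPM of the sum in no-agonist library 3. The mean centred log2 level of these markers was lowest of all 6 libraries in no-agonist library 2, at -1.19. All 8 smooth muscle markers had negative fold changes, with a sum of 11931, 2968 and 3625 CPM with the agonist, against 8103, 7643 and 19462 CPM without it. All 6 endothelial markers had positive fold changes. Their mean centred log2 level was 0.18, 0.37 and 0.19 with the agonist, against 0.056, -0.36 and -0.43 without it. Of 5 leukocyte markers listed, 4 were tested, and of these Cd79a, Ncr1 and Cd3e had few reads, 164, 144 and 170 in all. The mean centred log2 level of the 4 was 0.27, 0.56 and 0.92 with the agonist, against -0.14, -1.17 and -0.45 without it. By these levels, for endothelium and leukocytes, as for Scd2, all agonist libraries lay above the others. Taken as sums, the endothelial markers overlapped, at 370, 455 and 330 CPM with the agonist, against 355, 240 and 228 CPM without it. Singly, 2 of the 6 endothelial markers and 1 of the 4 leukocyte markers tested had all agonist libraries above the others, against 6.94% of all genes tested. The sum of 5 red blood cell markers was 346, 396 and 1883 CPM with the agonist, against 674, 1047 and 120.1 CPM without it. The sum of 5 uterine gland markers, of which 2 were tested, was 9.95, 101 and 90.3 CPM with the agonist, against 13.1, 19.6 and 10.7 CPM without it. Most of the sum in agonist libraries 2 and 3 was Cxcl15, at 1.36, 82.2 and 69.8 CPM with the agonist, against 0.755, 1.04 and 0 CPM without it. Foxa2, the other gland marker tested, measured 14.5 ± 6.37 with the agonist and 13.9 ± 4.11 CPM without it (log2 fold change 0.07 ± 0.40). The part of these cells in the levels of the 32 genes was not tested. Of 7 markers of steroid-making ovary cells, Cyp11a1, Fshr and Cyp19a1 had 0 reads in all 6 libraries, and Cyp17a1, Hsd3b1 and Lhcgr had 1, 2 and 10 reads in all. Star, the 1 tested, measured 18.1, 4.01 and 2.46 CPM with the agonist, against 2.94, 5.83 and 16.4 CPM without it.

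Per length of merged exons, Scd2 was the most abundant of the 32 genes at 143 ± 46.4 CPM per kilobase (mean ± SD over the 6 libraries). Nr1h2 with 39.4 ± 2.54 and Fasn with 38.6 ± 14.3 followed, then Mvd at 26.3 ± 17.0 CPM per kilobase. Lss and Idi1 were the least abundant at 1.83 ± 0.850 and 0.644 ± 0.535 CPM per kilobase. Of the 31 pairs of neighbours in this order, 3 lay further apart than the larger of their SDs, Scd2 and Nr1h2, Dhcr7 and Sc5d, and Lss and Idi1. The other neighbours did not differ beyond their spread.

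Other genes of these routes gave no call by edgeR at the adjusted threshold. Of 13 genes of sterol transport and esterification tested, 8 lay higher and 5 lower, and 4 of the higher ones and 0 of the lower ones had an unadjusted p under 0.05 (4.17% and 5.09% of all genes), with a median log2 fold change of 0.09 against 0.02 for all genes. Soat1, which esterifies cholesterol for storage, measured 31.5, 49.3 and 46.3 CPM in agonist libraries 1, 2 and 3, against 21.7, 10.8 and 13.0 CPM in no-agonist libraries 1, 2 and 3 (log2 fold change 1.48 ± 0.32, edgeR adjusted p = 0.262; DESeq2 adjusted p = 0.00520). Its groups did not overlap. Gramd1a, a carrier of plasma membrane cholesterol to the endoplasmic reticulum, measured 118 ± 10.5 CPM with the agonist and 74.8 ± 5.84 CPM without it. The lipoprotein receptor Scarb1 measured 54.2 ± 12.1 with the agonist and 30.5 ± 10.3 CPM without it. In both, all agonist libraries lay above the others (edgeR adjusted p = 0.329 and 0.481). Of the 13 genes, 5 had this pattern and 0 the reverse, against 6.94% and 7.61% of all genes tested.

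Of 24 other lipogenic genes tested, 12 had positive and 12 negative fold changes (52.2% and 47.8% of all genes). Of these, 1 and 2 had an unadjusted p under 0.05, against 4.17% and 5.09% of all genes. The acetyl-CoA synthetase Acss2, an SREBP target, measured 22.6 ± 0.645 with the agonist and 35.8 ± 4.04 CPM without it (log2 fold change -0.66 ± 0.19, edgeR adjusted p = 0.349). Malic enzyme Me1, a source of NADPH, measured 33.2 ± 12.2 with the agonist and 63.1 ± 6.55 CPM without it (log2 fold change -0.93 ± 0.30, edgeR adjusted p = 0.403). Scd3 had few reads, at 1.62 ± 0.754 with the agonist and 0.330 ± 0.107 CPM without it. All agonist libraries lay below the others for Acss2 and Me1, and above them for Scd3. Of the 24 genes, 2 lay wholly below and 1 wholly above, against 7.61% and 6.94% of all genes tested. Of 12 genes of SREBP processing and sterol-regulated degradation, 5 lay higher and 7 lower (52.2% and 47.8% of all genes). Of these, 0 and 1 had an unadjusted p under 0.05 (4.17% and 5.09% of all genes). Erlin2, of the complex that marks proteins for degradation, measured 83.5 ± 7.19 with the agonist and 113 ± 8.49 CPM without it (edgeR adjusted p = 0.505). All its agonist libraries lay below the others (7.61% of all genes). Of 8 further LXR targets and efflux genes tested, 6 lay higher and 2 lower, against 52.2% and 47.8% of all genes. None had an unadjusted p under 0.05, and the median log2 fold change was 0.17. Smpdl3a, with the smallest p of these, lay lower (log2 fold change -0.79 ± 0.42, edgeR adjusted p = 0.627). It measured 77.9, 76.6 and 86.2 CPM with the agonist, against 80.5, 89.9 and 246 CPM without it, so the difference lay mostly in no-agonist library 3.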

How the data were processed

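The authors deposited whole-number read counts for each gene symbol in each of the 6 libraries, and no normalization is recorded for them. Per the submitters' processing notes, HTSeq 0.6.1 and the mouse build mm10 (GRCm38) were used. No source used here gives the aligner, annotation, strand setting or filters. Per the labels' protocols, total RNA was sequenced single-end on an Ion Proton.

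The fit used R 4.3.3 with edgeR 4.0.16: filterByExpr at its defaults, TMM factors and the quasi-likelihood F-test over 16581 genes, with Benjamini-Hochberg adjustment and a threshold of 0.05. SEs are the fold change over the root of F. DESeq2 1.42.0 and limma 3.58.1 (voom) were alternatives. List levels used log2 CPM with a prior count of 2. The edgeR fit was tested on simulated counts, drawn independently for each gene. They held no shifts shared by many genes of a library, so the fit was not tested for those. Coordinates and exon lengths are from GENCODE M21 (GRCm38), promoters from RefSeq. The 32 genes, the other lists and the rules for naming genes (per-library values for the 3 genes of each role with the smallest p, and up to 3 genes of each other list) were chosen with earlier results of these data known. Samples were grouped by the labels, which give no batch, litter or day.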

Additional observations from a re-analysis of the deposited data

How the results depend on the processing

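Of 415 recomputed fold changes of the 32 genes, 371 kept their direction and side of the threshold, 1 passed it (Scd2 by DESeq2) and 43 changed direction. The cause of each change was not tested. DESeq2 called 141 genes higher and 253 lower, and 1 of the 32 genes. Without a filter on low counts edgeR called 8 genes higher and 28 lower, with 1054 higher at an unadjusted p under 0.05. With library totals alone, an unadjusted p under 0.05 was found for 1192 genes with a positive and 520 with a negative fold change, and 15 of the 32 genes had a fold change below 0. Under that scaling the log2 fold change was 0.086 for Acat2, 0.11 for Mvk, 0.084 for Tm7sf2, 0.12 for Hsd17b7, 0.093 for Ebp, 0.15 for Scap, 0.039 for Nr1h2, 0.016 for Fasn and 0.074 for Scd1, all below 0 with TMM. With upper-quartile factors it was 0.0024 for Hsd17b7, 0.032 for Scap and 0.0024 for Scd1. With limma-voom it was 0.056 for Acat2, 0.028 for Mvk, 0.049 for Fasn and 0.34 for Scd1. With a mean of at least 5 CPM, which removed Idi1, it was 0.0034 for Scap. Leaving out 1 library in turn, 0 to 1 genes passed the threshold downwards, 535 to 1093 lay lower at an unadjusted p under 0.05, and 15 to 24 of the 32 genes lay below 0. Both the single call and the count of 15 came without no-agonist library 2, and the count of 535 without agonist library 3. The log2 fold change then ranged from -0.43 to 0.61 for Acat2, -0.29 to 0.41 for Mvk, -1.27 to 0.0093 for Fdps, -0.97 to 0.086 for Sqle, -0.56 to 0.23 for Tm7sf2, -0.37 to 0.25 for Nsdhl, -0.79 to 0.28 for Hsd17b7, -0.30 to 0.27 for Ebp, -0.42 to 0.73 for Stard4, -0.13 to 0.061 for Scap, -0.43 to 0.39 for Fasn and -0.54 to 1.79 for Scd1. No paired analysis was possible because the labels' replicate numbers are not shared between the groups. Among the 32 genes Idi1 had the fewest reads, as low as 3 in a library, and of the other lists Scd4, Soat2, Ch25h, Abcg5 and Abcg8 had too few reads to be tested.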
